A study of Mus musculus with 8 samples.

Results

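Matrix glycoproteins, proteoglycans and crosslinking enzymes of the dermis, a set of 36 named genes, were followed on arrays of mouse dorsal skin in a model of atopic dermatitis. Members were found by the gene symbol annotated to each probe set, and each gene was represented by the probe set with the highest mean over the 8 arrays. Of the 36 genes, 32 had a probe set listed under their symbol alone, with 72 probe sets in all, and 30 passed the filter on low signal and were tested among 12420 genes. Spp1, Fbn1, Efemp2 and Loxl2 had no such probe set and were not analysed here. Thbs4 and Nid2 lay below the filter, with log2 signals of 3.32 to 4.92 and 2.51 to 4.26 over the arrays.

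The study used Balb/c mice, an albino inbred strain that mounts strong type 2 responses. The sham group (n = 2) had neither DNCB nor HY209 according to its titles and source names. The DNCB group (n = 3) received the hapten 1-chloro-2,4-dinitrobenzene, a contact sensitizer, on the back for 15 days and vehicle over the last 7 days. The DNCB+HY209 group (n = 3) received the same hapten and, over the last 7 days, a PEG gel with 5% of the compound named HY209. All mice carried the Balb/c genotype, with no engineered allele named in the labels. The protocol fields of all samples, sham included, carry the text of the vehicle-treated DNCB model, so the groups rest on titles and source names. The labels give no age or sex and do not say whether each array came from a separate mouse, and p-values then reflect only variation among these arrays, which may be technical.

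The extracellular matrix of the dermis is a collagen scaffold whose other parts set its architecture. Matricellular glycoproteins such as the tenascins, periostin and the thrombospondins act on cell adhesion and repair more than they bear load. Elastin is laid onto fibrillin microfibrils with the help of the fibulins, and the lysyl oxidases crosslink both elastin and collagen. Small leucine-rich proteoglycans such as decorin, biglycan and lumican bind collagen fibrils and set their width, and nidogens join laminin to collagen IV in basement membranes. Dermal fibroblasts make most of these proteins, with contributions from vessels, macrophages and keratinocytes, and whole-skin arrays cannot tell fewer cells of a type from less RNA per cell.

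Signals are log2 values per probe set. The array medians were 4.07 to 4.22, and a difference that rests on signals near or below them is approximate, since no detection calls were used. The correlation of 2 arrays over their probe sets lay between 0.965 and 0.987 inside a group, and between 0.92 and 0.987 for arrays of different groups. The 3' to 5' Gapdh signal ratio, a measure of RNA integrity, was between 2.1 and 7.35 and highest on DNCB array 3. Bacterial spike-in probe sets had mean log2 signals from 9.67 on DNCB array 2 to 12.01 on sham array 2. The keratinocyte list, which includes Krt5 and Krt14, had a mean log2 signal of 10.8 to 12.19 on the arrays, far above the array medians.

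The first comparison set DNCB with vehicle against sham. The labels do not settle whether sham skin had vehicle, so effects of DNCB and of vehicle may not be separable here. Tenascin C and fibulin 5 rose, tenascin X fell, and the other 27 matrix genes did not pass the test. That was 3 of 30 genes (2 higher and 1 lower), against 1.83% of all genes tested in the same fit (1.37% higher and 0.459% lower). The median log2 difference of the 30 genes was 0.22, against 0.15 for all genes, with 20 above 0 and 10 below (63.2% and 36.8% of all genes). At an unadjusted p under 0.05 there were 10 higher and 2 lower, where all genes gave 16.8% (12.4% higher and 4.4% lower). The groups' arrays did not overlap for 9 genes that were higher and 2 that were lower, 30% and 6.67% of the 30, against 23.3% and 11.2% of all genes, so this count lay near the background.

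Tnc encodes tenascin C, an oligomeric glycoprotein that is scarce in resting dermis and abundant in healing wounds. Its log2 signal was 4.83 and 5.06 on the sham arrays, 9, 10.2 and 7.63 on DNCB arrays 1 to 3, and 6.74, 8.34 and 8.29 with HY209. Every DNCB array, with or without HY209, was above both sham arrays. Tnc rose by 4 log2 units in DNCB, 16-fold (SE 0.71, 95% interval 2.4 to 5.6, limma adjusted p = 0.0334), and its other probe set gave 3.19. The call ended without sham array 1 (adjusted p = 0.133), sham array 2 (0.161), DNCB array 1 (0.12), DNCB array 2 (0.0759) or DNCB+HY209 array 2 (0.0651), while the difference stayed between 3.37 and 4.66. Adding the spike-in level to the fit gave a difference of 2.72, and the adjusted p was 0.12.

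Fbln5 encodes fibulin 5, which binds elastin and Loxl1 and is needed to assemble elastic fibres. Its log2 signal was 4.3 and 3.82 in sham, 6.36, 6.31 and 5.25 in DNCB, and 5.14, 5.25 and 5.17 with HY209. All DNCB and HY209 arrays were above the sham arrays, which lay near the array medians. Fbln5 rose by 1.91 log2 units in DNCB, 3.76-fold (SE 0.33, 95% interval 1.16 to 2.67, limma adjusted p = 0.0322). Its second probe set, which was above the array median on 0 arrays, gave -0.68. The call ended without sham array 1 (adjusted p = 0.0986), sham array 2 (0.196), DNCB array 1 (0.112), DNCB array 2 (0.0968) or DNCB+HY209 array 2 (0.0658), after adding the spike-in level to the fit (0.205) and in a fit of sham and DNCB alone (0.059).

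Tnxb encodes tenascin X, a collagen-binding glycoprotein of loose connective tissue whose loss makes skin hyperextensible. Its log2 signal was 5.12 and 6.45 in sham, 3.93, 4.1 and 3.86 in DNCB, and 3.92, 3.55 and 4.03 with HY209. All treated arrays lay below both sham arrays, near or under the array medians. Tnxb fell by 1.82 log2 units in DNCB (SE 0.35, 95% interval -2.61 to -1.03, limma adjusted p = 0.0414), from 1 probe set. It passed the filter on 3 arrays, both sham arrays and DNCB array 2, so the filter favoured a fall. The sham arrays differed from each other by more than the DNCB arrays did, with an SD of 0.94 against 0.12. Without sham array 2 the difference was -1.16 and the adjusted p was 0.154. The call also ended without any 1 of DNCB arrays 1 to 3 (0.134, 0.102 and 0.0688), without DNCB+HY209 array 2 (0.0724) or 3 (0.0569), with the spike-in covariate (0.244) and in a fit of sham and DNCB alone (0.0686).

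**Figure D1:**
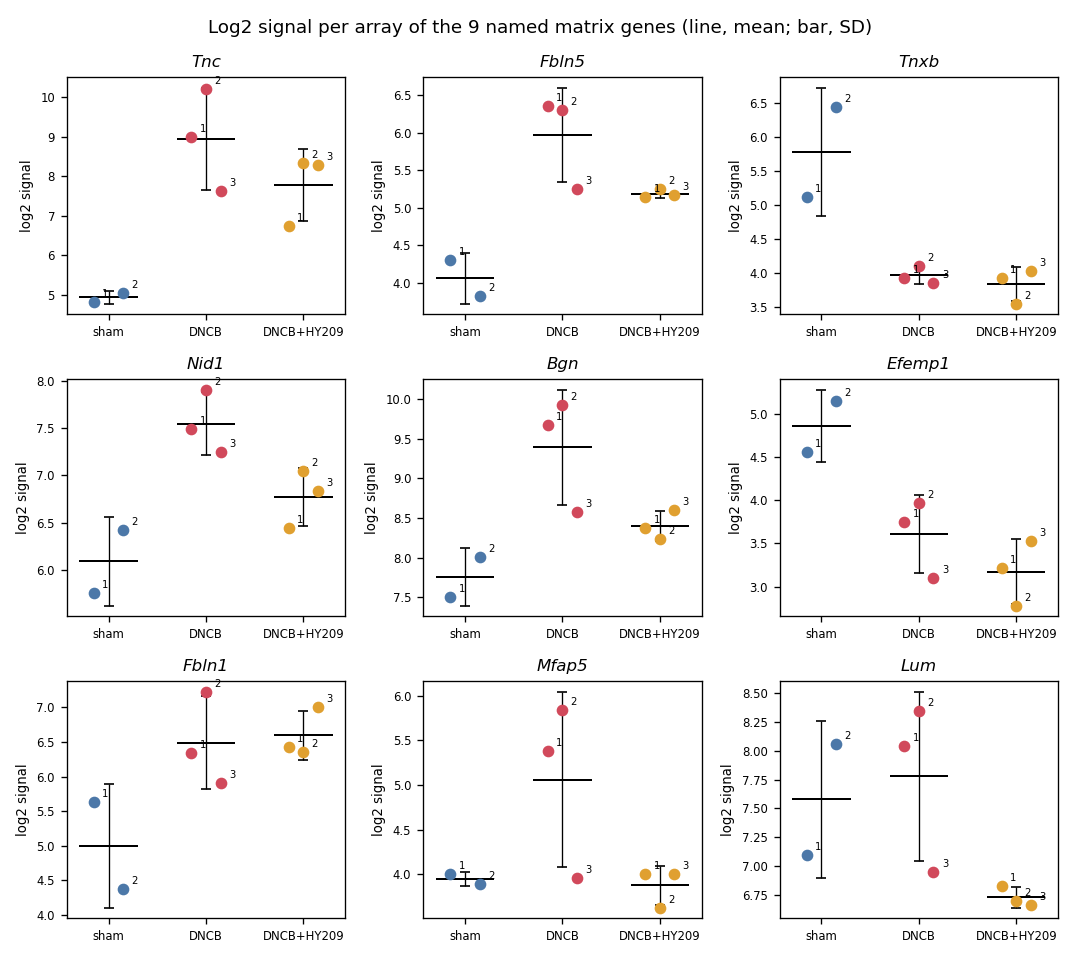
Log2 signal (vertical axis) of 9 matrix genes in the 3 groups (horizontal axis), with 1 point per array, numbered by replicate, a line at the group mean and a bar of 1 SD. Tnc and Fbln5 were above sham on all DNCB arrays and Tnxb was below, and DNCB array 3 lay nearest the DNCB+HY209 arrays, among the DNCB arrays, for Fbln5, Bgn, Mfap5 and Lum.

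The DNA just before the start of each of the 3 called genes is shown because they are the members that changed, 2 upward and 1 downward. Each sequence is the 250 bases before the first RefSeq start listed for the gene, on build GRCm38.p6 and on the gene's own strand, and capitals mark matches to a motif searched.
Tnc, chr4:64047016-64047265, strand minus: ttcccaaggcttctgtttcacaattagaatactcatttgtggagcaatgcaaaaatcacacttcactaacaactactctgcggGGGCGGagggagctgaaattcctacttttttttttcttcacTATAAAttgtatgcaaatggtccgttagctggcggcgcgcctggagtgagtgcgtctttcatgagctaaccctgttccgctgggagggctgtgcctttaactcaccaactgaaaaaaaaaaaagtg
Fbln5, chr12:101819120-101819369, strand minus: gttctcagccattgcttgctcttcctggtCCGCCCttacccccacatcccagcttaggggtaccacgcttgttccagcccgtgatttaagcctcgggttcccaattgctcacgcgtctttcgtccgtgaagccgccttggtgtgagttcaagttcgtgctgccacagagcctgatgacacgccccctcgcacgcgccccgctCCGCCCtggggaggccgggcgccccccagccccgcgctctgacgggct
Tnxb, chr17:34670285-34670534, strand plus: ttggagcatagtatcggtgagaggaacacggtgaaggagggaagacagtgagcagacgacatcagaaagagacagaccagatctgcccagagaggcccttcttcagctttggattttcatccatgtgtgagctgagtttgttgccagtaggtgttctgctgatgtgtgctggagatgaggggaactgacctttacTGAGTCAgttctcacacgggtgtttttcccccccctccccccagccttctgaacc
Both strands were searched for 6 motifs. The TATA box was searched as TATAAA. The site of the AP-1 factors, which answer to stress and growth signals, was searched as TGANTCA. The GC box, a common promoter element, was searched as GGGCGG. The SMAD element of the TGF-beta pathway was searched as GTCTAGAC, and the CArG box and the NF-kB site by their consensus. The Tnc window held a TATA box motif at -126 and a GC box at -167 from the start. The Fbln5 window held GC boxes at -221 and -48, and the Tnxb window an AP-1 motif at -55. Tnc and Fbln5 each had another RefSeq start listed. From the other Tnc start the same TATA and GC box sites lay at -205 and -246, and the other Fbln5 window held no match. No matches overlapped each other. Of 32851 windows of the same length, 12.4% held the TATA motif, 6.75% the AP-1 motif, 32.7% the GC box, 1.47% the CArG box, 3.9% the NF-kB site and 0.167% the SMAD element. Windows of 24 of the 36 genes were found by symbol. Among these 6 held the TATA motif (Aspn, Ogn, Postn, Spp1, Thbs2 and Tnc), 13 the GC box, 2 the AP-1 motif (Efemp1 and Tnxb), 2 the NF-kB site (Mfap2 and Thbs2), 0 the CArG box and 0 the SMAD element. A gene was counted if any of its windows matched, so these counts cannot be set directly against the shares of single windows.

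Of the matricellular and adhesive glycoproteins, 7 were tested in DNCB against sham, with 1 higher (Tnc), 1 lower (Tnxb) and a median log2 difference of 0.16. Members named in the paragraphs on role classes, from here to that on lumican, beyond the 9 in the plot of values by array were chosen after their values were seen, to fill their role classes. The lysyl oxidases are the exception, as they were named because their class is small. Fn1, the adhesive glycoprotein of provisional wound matrix, had log2 signals of 6.61 and 6.76 in sham, 7.64, 7.81 and 6.83 in DNCB and 6.71, 6.81 and 6.7 with HY209. The groups did not overlap between sham and DNCB, and the difference of 0.74 (SE 0.30) did not pass (limma adjusted p = 0.266). Postn encodes periostin, which is known to be induced by type 2 cytokines in allergic skin. Its log2 signal was 9.28 and 10.42 in sham, 10.37, 10.44 and 9.21 in DNCB and 9.15, 10.1 and 9.89 with HY209. The 3 groups overlapped throughout, and the DNCB difference was 0.16 with a 95% interval of -0.92 to 1.24, so a change of about 2-fold in either direction is within its error.

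Sparc, a collagen-binding glycoprotein, and the thrombospondin genes Thbs1 and Thbs2 also overlapped between sham and DNCB. Their differences were -0.50, -0.65 and 0.65, with adjusted p of 0.528, 0.637 and 0.555. The Sparc signal on sham array 2, 11.52, was the highest of the 8. For Thbs1, an activator of latent TGF-beta, the DNCB arrays ran from 4.8 to 6.53 and the HY209 arrays from 3.99 to 6.29, a wide spread within both groups.

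Elastic fibre and microfibril genes numbered 11 tested, with 1 higher (Fbln5), 0 lower and a median difference of 0.28. Fbln2, another elastin-binding fibulin, had log2 signals of 4.17 and 5.04 in sham, 6.49, 7.83 and 5.59 in DNCB and 5.23, 5.76 and 5.67 with HY209. Sham and DNCB did not overlap, and the difference of 2.03 (SE 0.56) did not pass (limma adjusted p = 0.129). Fbln1 had log2 signals of 5.63 and 4.37 in sham, 6.34, 7.22 and 5.91 in DNCB and 6.43, 6.35 and 7 with HY209. It stood 1.49 higher in DNCB (SE 0.46, adjusted p = 0.164), but its 3 probe sets ran from -0.23 to 1.49. The difference was 0.87 without sham array 2, 0.74 with the mean of its probe sets and 0.73 after adding the spike-in level to the fit. Efemp1, which encodes fibulin 3, lay in the opposite direction. Its log2 signal was 4.56 and 5.15 in sham, 3.75, 3.97 and 3.1 in DNCB and 3.21, 2.78 and 3.53 with HY209, so that all treated arrays were below the sham arrays and below the array medians. The DNCB difference was -1.25 (SE 0.33, adjusted p = 0.113). Efemp1 passed the filter only through the 2 sham arrays, which favoured a lower value in the treated groups.

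Among the structural components themselves, Eln, the elastin gene, differed by 0.29 in DNCB (adjusted p = 0.552), and its 2 passing probe sets disagreed in sign. The microfibril-associated genes Mfap2 and Mfap4 were 0.25 and 0.28 higher (adjusted p of 0.586 and 0.731), and the second passing probe set of Mfap2 gave -0.21. Mfap5, which encodes a microfibril glycoprotein, had log2 signals of 4 and 3.89 in sham, 5.38, 5.84 and 3.96 in DNCB and 4, 3.63 and 4.01 with HY209. DNCB arrays 1 and 2 stood alone, and DNCB array 3 was level with sham, with a difference of 1.11 (SE 0.46, adjusted p = 0.281). Without DNCB array 3 it was 1.66 with an adjusted p of 0.0268, without DNCB array 2 it was 0.72 (0.615), and with the spike-in level added 0.58 (0.868). It passed the filter on 2 arrays only, and its other probe set gave 0.01. The elastic fibre protein gene Emilin1 and the latent TGF-beta binding protein genes Ltbp1 and Ltbp2 had differences of -0.17, 0 and -0.90 (adjusted p of 0.702, 0.991 and 0.323), and another passing probe set of Emilin1 gave 0.81.

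Lysyl oxidases, the copper enzymes that start collagen and elastin crosslinks, numbered 3 tested with 0 called and a median difference of 1.18. Lox had log2 signals of 5.22 and 5.23 in sham, 6.48, 7.74 and 5.46 in DNCB and 5.24, 5.32 and 5.71 with HY209. All DNCB arrays were above sham, array 3 by little, and the difference of 1.33 (SE 0.53) did not pass (limma adjusted p = 0.266). Loxl1, which acts on elastin, had log2 signals of 4.41 and 4.79 in sham, 5.92, 6.76 and 4.67 in DNCB and 4.71, 4.88 and 5.35 with HY209, a DNCB difference of 1.18 (SE 0.51, adjusted p = 0.292). The second passing probe sets of Lox and Loxl1 gave smaller DNCB differences, 0.53 and 0.16, so the class median rests on the choice of probe set. Loxl3 ran from 4.18 to 5.11 over the 8 arrays, with a difference of 0.33 (limma adjusted p = 0.469).

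Of the 8 proteoglycans 0 were called, and the median difference was -0.08, with 4 above 0 and 4 below. Bgn encodes biglycan, a collagen-binding proteoglycan that also signals through Toll-like receptors when released. Its log2 signal was 7.5 and 8.01 in sham, 9.68, 9.93 and 8.57 in DNCB and 8.37, 8.23 and 8.6 with HY209. All DNCB arrays were above sham, by 1.64 on average (SE 0.39, 95% interval 0.76 to 2.53, limma adjusted p = 0.0848), and the 3 probe sets gave 1.14 to 1.64. Without single arrays the adjusted p ran from 0.0222 (DNCB array 3, with a difference of 2.05) to 0.225 (DNCB array 2, 1.37). It was 0.0111 with the Gapdh ratio and 0.447 with the spike-in level added to the fit. Its close relative Dcn, which encodes decorin, had log2 signals of 9.9 and 10.15 in sham, 9.07, 10.1 and 8.84 in DNCB and 9.37, 8.5 and 8.39 with HY209, with a DNCB difference of -0.69 (SE 0.42, adjusted p = 0.408).

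Lum, the gene of the corneal and dermal proteoglycan lumican, had log2 signals of 7.1 and 8.06 in sham, 8.04, 8.34 and 6.95 in DNCB and 6.83, 6.7 and 6.66 with HY209. Sham and DNCB overlapped, and the difference of 0.19 turned to -0.08 after quantile normalization. Ogn, Fmod, Prelp and Aspn, all small leucine-rich proteoglycans, differed by -0.85, -0.24, 0.19 and 0.08. The large hyaluronan-binding proteoglycan Vcan differed by -0.27. Adjusted p-values of these genes ran from 0.365 to 0.921, and the passing probe sets of Aspn and Vcan disagreed in sign.

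Nid1, the basement membrane linker nidogen 1, had log2 signals of 5.76 and 6.42 in sham, 7.49, 7.9 and 7.24 in DNCB and 6.44, 7.04 and 6.83 with HY209. The 3 groups did not overlap. DNCB stood 1.46 above sham (SE 0.31, 95% interval 0.77 to 2.15), just short of the threshold (limma adjusted p = 0.053), and the second passing probe set gave 0.67. Without single arrays the adjusted p ran from 0.043 (DNCB+HY209 array 1) to 0.181 (sham array 1). It was 0.0213 with the Gapdh ratio and 0.29 with the spike-in level added to the fit.

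Other genes of the same tissue compartment were counted from lists. Of 12 fibrillar and associated collagens 3 rose in DNCB and 0 fell, with a median difference of 1.51, where all genes gave 1.37% higher, 0.459% lower and a median of 0.15. They were Col12a1 (3.84, SE 0.72, adjusted p = 0.0394), Col5a1 (2.17, SE 0.39, adjusted p = 0.0361) and Col6a3 (2.13, SE 0.39, adjusted p = 0.0365). Of 14 basement membrane partners of the nidogens 3 rose and 0 fell, with a median of 0.71: the collagen IV chains Col4a2 (2.32, SE 0.38) and Col4a1 (2.28, SE 0.31) and the vascular laminin chain Lama4 (1.10, SE 0.18). Of 20 relatives of the matrix genes 3 rose and 0 fell, with a median of 0.58, namely the hyaluronan synthase Has3 (3.17, SE 0.52), the endothelial glycoprotein Mmrn2 (2.19, SE 0.31) and Sparcl1 (1.72, SE 0.34). Of 10 collagen processing genes 1 fell, the procollagen proteinase enhancer Pcolce2, by 1.68 (SE 0.31, adjusted p = 0.0391), and 0 rose. Of 16 TGF-beta pathway genes and 15 matrix receptors 0 were called, with medians of 0.40 and 0.27. The TGF-beta feedback gene Skil and the ligand Tgfb3 differed by 1.21 and 0.69 (adjusted p of 0.14 and 0.168), and the receptors Itgb5 and Cd44 by 0.90 and 0.99 (adjusted p of 0.151 and 0.203).

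Cell type markers were read on the same arrays, and most of them did not pass the test. Of all genes tested, 1.37% were called higher in DNCB than in sham and 0.459% lower. The mean log2 signal of the 13 fibroblast markers was 6.57 to 6.67 in sham, 6.62 to 7.39 in DNCB and 6.39 to 6.49 with HY209, with 1 member called, Pdgfrb (3.18 higher in DNCB, SE 0.50). The log2 of their summed signal was 12 to 13.16, 11.97 to 12.65 and 11.19 to 11.66 in the same order. The 10 endothelial markers ran from 4.83 to 4.91, 5.88 to 6.52 and 5.3 to 5.81, with 5 higher in DNCB (Cdh5, Emcn, Cldn5, Egfl7 and Plvap), and their summed signal from 8.55 to 8.55, 9.57 to 10.29 and 9.03 to 9.53. The 11 macrophage markers ran from 5.36 to 5.61, 5.72 to 7.02 and 5.53 to 6.3, with Ms4a7 higher, and their summed signal from 9.36 to 9.63, 9.8 to 10.97 and 9.53 to 10.21. The 7 pericyte and smooth muscle markers ran from 5.96 to 5.97, 6.42 to 6.98 and 6.29 to 6.58, with Rgs5 higher. Hair follicle markers (12 genes) varied within groups, from 6.81 to 9.66 in sham, 5.46 to 7.93 in DNCB and 6.5 to 8.85 with HY209. Adipocyte markers (6 genes) ran from 7.54 to 8.18, 5.98 to 7.45 and 6.02 to 6.86, and skeletal muscle markers (12 genes) from 9.47 to 11.02, 9.88 to 12 and 10.9 to 11.23, with Myh2 higher in DNCB. The part of these cells in the matrix results was not tested. Some lists share genes, so their results are not separate. Col1a1 and Col1a2 are fibroblast markers and collagens, Dpt is a fibroblast marker and a relative, and Acta2 is a pericyte and TGF-beta gene. The summed fibroblast signal is weighted to Col1a2, at 11.46 and 12.75 in sham, 11.12 to 11.83 in DNCB and 10.28 to 10.78 with HY209.

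**Figure D2:**
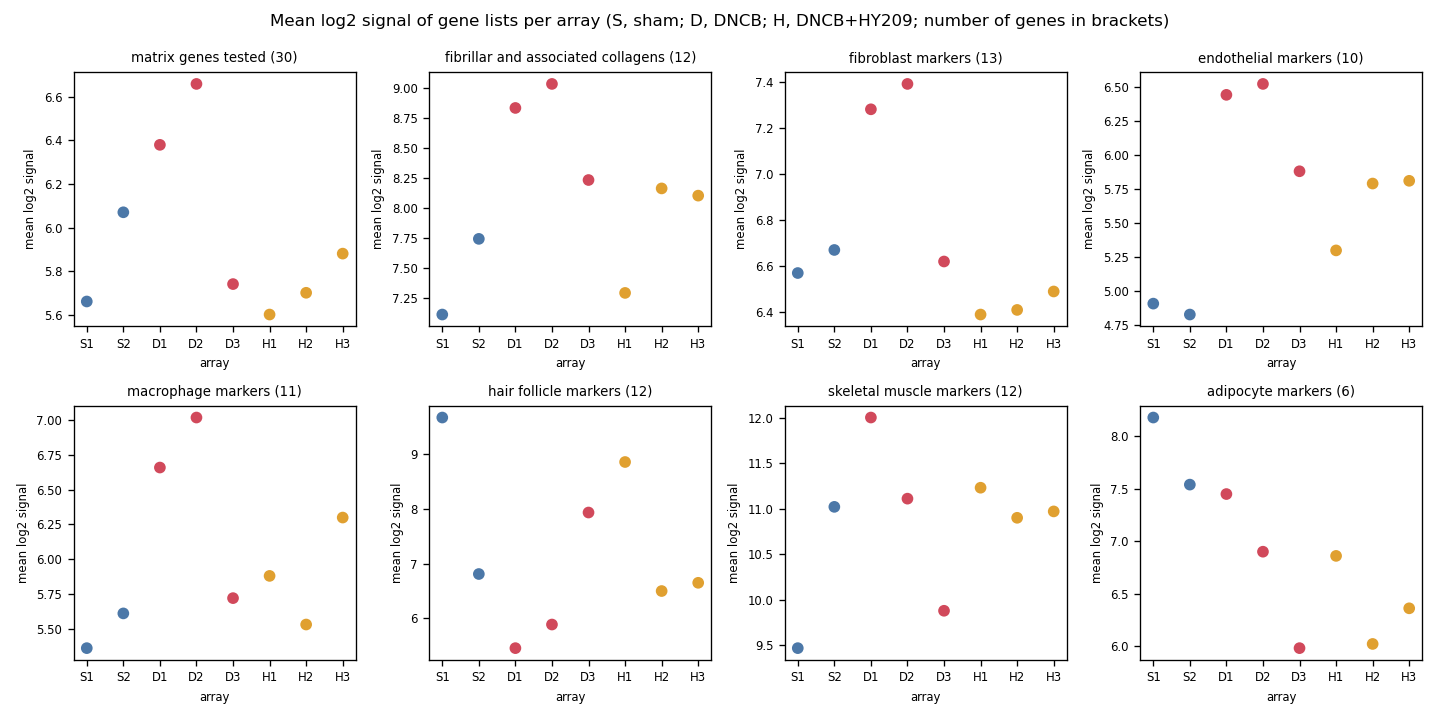
Mean log2 signal (vertical axis) of the 30 tested matrix genes, of the collagens and of 6 cell type lists on each of the 8 arrays (horizontal axis, coloured by group). DNCB arrays 1 and 2 were the 2 highest for the matrix genes (6.38 and 6.66), the collagens and the fibroblast, endothelial and macrophage markers. DNCB array 3 (5.74 for the matrix genes) lay within or close to the range of the HY209 arrays. Skeletal muscle markers were the exception, at 9.88 on DNCB array 3 and 10.9 to 11.23 on the HY209 arrays.

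The effect of the HY209 gel was read from the treated arrays against DNCB with vehicle. Of the 30 matrix genes 0 were called by limma, as were 0% of all genes, and 28 of 30 lay lower with HY209, with a median log2 difference of -0.47 against 0.03 for all genes. Of all genes 43% lay lower and 57% higher. At an unadjusted p under 0.05 there were 7 of 30 matrix genes, all lower, against 1.3% of all genes (1.05% lower and 0.25% higher). The 2 genes above 0 were Fbln1 (0.10) and Emilin1 (0.11), whose probe sets disagreed in sign. With HY209 all arrays were below all DNCB arrays for 3 of 30 genes (Fn1, Lum and Nid1), against 2.17% of all genes, and the reverse held for 0 of 30, against 2.83%.

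The largest moderated differences were those of Mfap5, Bgn, Nid1, Lum and Fbln5. Mfap5 differed by -1.18 (SE 0.41, 95% interval -2.11 to -0.25), and DNCB array 3, at 3.96, lay inside the HY209 range of 3.63 to 4.01. Since Mfap5 passed the filter only through DNCB arrays 1 and 2, the filter favoured a lower value with HY209. Lum differed by -1.05 (SE 0.38, 95% interval -1.91 to -0.19), with 6.66 to 6.83 on the HY209 arrays and 6.95 or more on the DNCB arrays. Bgn differed by -0.99 (SE 0.35, 95% interval -1.78 to -0.20), with -0.86 to -1.01 over its 3 probe sets. Fbln5 differed by -0.78 (SE 0.30), with the HY209 arrays at 5.14 to 5.25 and DNCB array 3 at 5.25. Nid1 differed by -0.77 (SE 0.27) and its second passing probe set by -0.61. Each of these had a limma adjusted p of 1.

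Each of the 3 genes called in DNCB had an adjusted p of 1 here. Tnc, which had risen, differed by -1.15 with HY209, but its 95% interval of -2.58 to 0.28 included 0, and DNCB array 3 (7.63) was below 2 of the 3 HY209 arrays. The Tnc difference became -0.53 when DNCB array 2 was left out and -1.81 when DNCB array 3 was. Leaving out DNCB+HY209 array 1 gave -0.63. Tnxb, which had fallen, differed by -0.13 (95% interval -0.84 to 0.58). By role class the medians were -0.69 for 7 matricellular and adhesive genes, -0.32 for 11 elastic fibre genes, -0.80 for 3 lysyl oxidases and -0.48 for 8 proteoglycans. The Lox difference was -1.13 (SE 0.48) and that of Fn1 was -0.69 (SE 0.27), both with an adjusted p of 1.

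**Figure D3:**
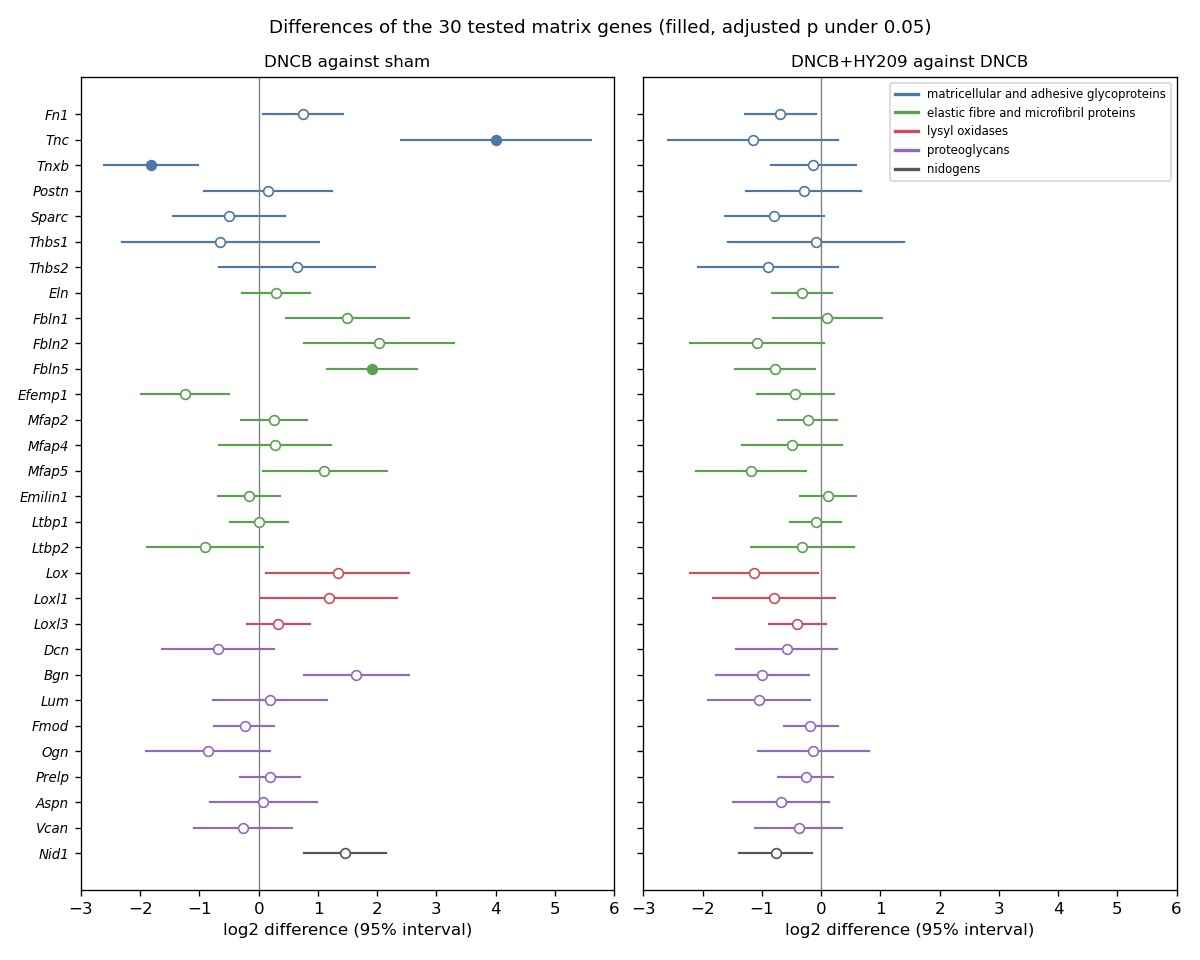
Log2 differences (horizontal axis, points, with 95% intervals as bars) of the 30 tested matrix genes (vertical axis, coloured by role class) for DNCB against sham and for DNCB+HY209 against DNCB. Filled points passed the test, 3 on the left and 0 on the right, where 28 of 30 points lie below 0.

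DNCB array 3 stood apart from the other DNCB arrays in these genes. It was the lowest of the 3 DNCB arrays for 25 of 30 matrix genes, 83.3%, against 37% of all genes tested. It lay at or below the highest HY209 array for 25 of 30, against 85.3% of all genes. DNCB arrays 1 and 2 were both above all HY209 arrays for 19 of 30 matrix genes, 63.3%, against 8.29% of all genes. This split of the DNCB arrays was made on these same data, so the shares describe it and do not test it. The Gapdh ratio of DNCB array 3 was 7.35, against 2.79 and 2.1 on DNCB arrays 1 and 2 and 2.31 to 3.24 with HY209. Its part in the matrix values was not tested beyond leaving the array out, which moved the median HY209 difference from -0.47 to -0.69 with 29 of 30 genes below 0 and 0 called. Against sham, the count of called matrix genes went from 3 to 6 without it, all higher (Bgn, Fbln2, Fbln5, Loxl1, Mfap5 and Tnc). The count over all 12420 genes went from 227 to 256. Mfap5 passed the filter only through DNCB arrays 1 and 2, the DNCB arrays kept in that fit, which favoured its call. With the Gapdh ratio as a covariate 8 matrix genes were called against sham, 6 higher and 2 lower, and 452 of all genes. The lower genes were Tnxb and Efemp1, and Efemp1 had passed the filter only through the sham arrays. After adding the spike-in level instead, 0 matrix genes and 16 of all genes were called.

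**Figure D4:**
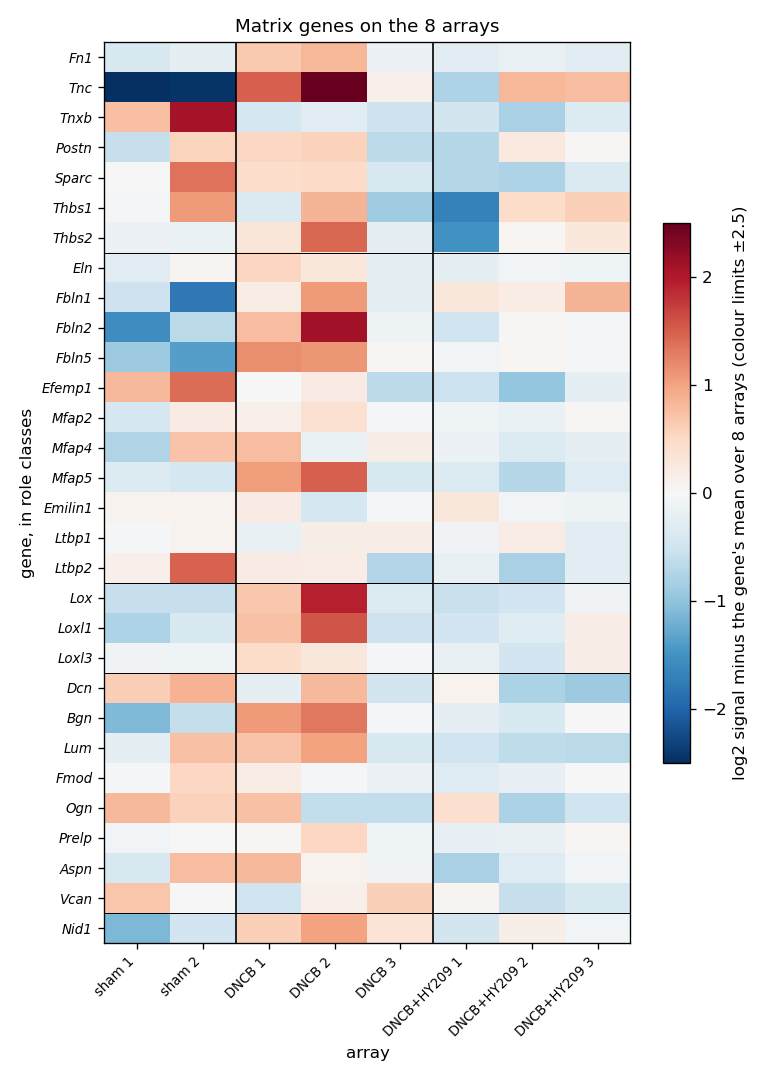
Log2 signal of each tested matrix gene (rows, in role classes separated by lines) on the 8 arrays (columns), as the difference from the gene's own mean over the arrays, in colour. DNCB arrays 1 and 2 are both above all other arrays for 12 of 30 genes (40%), against 5.67% of all genes tested. This pair was set apart on these same data, and Mfap5, among the 12, passed the filter only through it, so the shares are a description. Sham lies below the 6 other arrays for Tnc, Fbln1, Fbln2, Fbln5, Lox, Bgn and Nid1 and above them for Tnxb and Efemp1. Efemp1 passed the filter only through sham. For Lox the gap is small (5.23 against 5.24), and its other passing probe set overlaps. The share of all genes apart in this way was not computed. In DNCB against sham alone, 23.3% of all genes were higher and 11.2% lower without overlap, so this list is only a description.

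Related lists also lay lower with HY209 and held 0 calls. The 12 collagens were all below 0, against 43% of all genes, with a median of -0.93 against 0.03 and the largest moderated differences in Col3a1 (-1.08, SE 0.34) and Col5a2 (-1.14, SE 0.38). Of 14 basement membrane partners 13 were below 0 (median -0.36), among them Col4a1 (-0.87, SE 0.28) and Col4a2 (-0.82, SE 0.34). Of 10 collagen processing genes 9 were below 0 (median -0.24), including Pcolce (-1.04) and the collagen chaperone Serpinh1 (-0.55). The TGF-beta list had 11 of 16 below 0 (median -0.32), with Acta2 at -0.89 and Tagln at -0.77, both contractile genes. Of 15 matrix receptors 13 were below 0 (median -0.11), with Itga1 at -0.78 and Itga9 at -0.38. Of 20 relatives 16 were below 0 (median -0.29), with Mmrn2 at -0.75 and Fbn2 at -0.70. The cell type lists also held 0 calls. Below 0 lay 12 of 13 fibroblast markers (median -0.71), 10 of 10 endothelial markers (-0.65) and 11 of 11 macrophage markers (-0.67). The other medians were -0.43 (adipocyte), -0.10 (pericyte and smooth muscle), -0.08 (keratinocyte), 0.34 (skeletal muscle) and 0.92 (hair follicle). The adjusted p of each gene named here was 1.

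The third comparison set DNCB+HY209 against sham, sharing its arrays with the other comparisons. Of 30 matrix genes 0 were called, against 0.403% of all genes (0.266% higher and 0.137% lower), and at an unadjusted p under 0.05 there were 3 higher and 5 lower (14.2% and 5.11% of all genes, 19.3% together). Above 0 lay 10 genes and below it 20, against 65.7% and 34.3% of all genes. The median log2 difference was -0.08, against 0.20 for all genes, and under other settings of all 8 arrays it ran from -0.39 (spike-in level added) through -0.25 (Gapdh ratio added) and -0.24 (quantile normalization) to 0 (each array centred on its median). The groups did not overlap for 7 genes that were higher and 7 that were lower, 23.3% each, against 29.1% and 12.2% of all genes.

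The values of the 3 genes called under DNCB, and of Efemp1 and Fbln1, which were not called, are set side by side. Tnc was 4 above sham in DNCB and 2.85 above it with HY209 (SE 0.71, 95% interval 1.25 to 4.45, limma adjusted p = 0.125). Fbln5 was 1.91 and 1.13 above (SE 0.33, adjusted p = 0.165 for the latter). Tnxb was -1.82 and -1.95 (SE 0.35, adjusted p = 0.0561), and Efemp1 -1.25 and -1.68 (SE 0.33, adjusted p = 0.067). Fbln1 was 1.49 and 1.60 above (SE 0.46, adjusted p = 0.158), and the latter was 0.97 without sham array 2, 0.71 with the mean of its probe sets and 0.82 with the spike-in level added. For Tnc the spike-in level brought 2.85 to 1.54, and without sham array 2 the Tnxb value was -1.29. Without DNCB+HY209 array 1 Tnc and Tnxb passed against sham (adjusted p of 0.043 and 0.0448), and without sham array 1 Tnxb passed (0.028). Several proteoglycans and Sparc, named after their values were seen, were below all sham arrays with HY209 but overlapped sham in DNCB. The difference with HY209 was -1.27 for Dcn, -1.30 for Sparc, -0.98 for Ogn and -0.86 for Lum, with adjusted p of 0.193, 0.188, 0.278 and 0.294. For Lum it was -0.38 without sham array 2 and -1.33 without sham array 1.

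The related lists held 0 calls against sham with HY209, and of the cell type markers 1 was called, the muscle gene Myh2. Their medians were 0.58 for collagens, 0.09 for collagen processing, -0.04 for the TGF-beta list, 0.13 for receptors, 0.33 for basement membrane partners and 0.06 for relatives. The largest moderated differences were Col1a2 (-1.60) and Col6a3 (1.53), Pcolce2 (-1.37) and Bmp1 (0.79), Ccn2 (-2.54) and Skil (1.11), Itgb5 (0.90) and Cd44 (0.98), Col4a1 (1.41) and Lama4 (0.77), and Has3 (2.90) and Mmrn2 (1.44), in the order of the lists. Their adjusted p-values ran from 0.0561 for Has3 to 0.202 for Cd44.

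Likeness between matrix genes is given as a description over 8 arrays that share the group differences and differ in spike-in level and RNA integrity. The genes whose log2 signals were most like Tnc were Fbln5 (Pearson r = 0.928), Nid1 (0.927), Fbln2 (0.918), Bgn (0.882) and Loxl1 (0.823). Of all genes tested, 1.93%, 1.96%, 2.63%, 5.7% and 11.2% had a higher r with Tnc than these. On deviations from the group means these r values were 0.668, 0.815, 0.888, 0.748 and 0.891. Those most like Postn were Eln (0.834), Thbs1 (0.758), Aspn (0.753), Mfap2 (0.745) and Lum (0.702), and 0.881, 0.824, 0.796, 0.763 and 0.812 on the deviations, with 0.467% to 3.08% of all genes higher. The 5 names for Tnc and the 5 for Postn did not overlap, but how often that happens for other pairs of genes was not computed. Over all 435 pairs of tested matrix genes the median r was 0.326, and the value for pairs of all genes was not computed.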

How the data were processed

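Total RNA of frozen dorsal skin was amplified from the 3' end, labelled with biotin and read on 8 Affymetrix mouse arrays, per the labels' protocols. The deposited values were log2 signals per probe set, a scale taken from their values. Affymetrix Expression Console and MAS5 appear in the submitters' processing notes, and how arrays were scaled to each other is not stated in what was used here. Of 45101 probe sets, 64 were controls, 34945 had 1 gene symbol in the platform annotation, 932 had several and 9160 were not listed, and genes were named from those with 1.

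Probe sets entered with a signal over the array median on 2 or more of the 8 arrays, and a gene took its brightest probe set, which gave 12420 genes. Groups were compared with limma 3.58.1 in R 4.3.3 (lmFit, eBayes with intensity trend) in 1 fit of all arrays without a pseudocount, and two-sided p-values were adjusted by Benjamini-Hochberg across every gene tested, with a threshold of 0.05. SE is the moderated standard error. The code was tested on simulated data. Replicate numbers were not taken to pair the samples. The r of deviations of same-numbered arrays ran from -0.6 to 0.28 over 7 pairs. Deviations from means of 2 or 3 arrays depend on each other, so these r values cannot decide whether the samples were paired.

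The genes and lists were chosen with earlier results of these data known. Genes named were those called in any comparison and the 5 with the largest moderated t in each, from the related lists those called or otherwise the 2 with the largest moderated t, and others where stated. Alternatives covered scaling, filter, probe set choice, variance model, replicate block, covariates and leaving out each array. The number of arrays limits the precision. Promoter windows were RefSeq's. Figures were drawn with matplotlib 3.10.9.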

Additional observations from a re-analysis of the deposited data

How the results depend on the processing

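The 11 alternatives moved the DNCB against sham count of called matrix genes (3) to 1 in a fit of only the groups compared, 0 with the replicate block, 0 with the spike-in covariate and 8 with the Gapdh ratio covariate, and to 0 to 6 when single arrays were left out. The count over all genes (227) was 35 with the replicate block, 16 with the spike-in covariate, 452 with the Gapdh covariate, and 15 to 352 without single arrays. The median difference of the matrix genes (0.22) ran from 0.01 to 0.60 without single arrays. Leaving out a sham array leaves 1, whose spread is taken from the other groups. For DNCB+HY209 against DNCB the count was 0 and the median was below 0 under each alternative, at -0.69 to -0.35 without single arrays. For DNCB+HY209 against sham the matrix count (0) was 1 with the Gapdh covariate and 0 to 2 without single arrays, and the count over all genes (50) was 97 after quantile normalization, 24 with the mean of probe sets, 16 for only the groups compared, 12 with the replicate block, 8 with the spike-in covariate, and 9 to 287 without single arrays. The cause of these changes was not tested. Whether replicate numbers pair the samples could not be decided from these arrays, and with them as a block 0 matrix genes were called in each comparison. In DNCB against sham the limma adjusted p was then 0.0684 for Tnc and for Fbln5, and 0.107 for Tnxb.

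Of the 9 named genes' differences, those that turned sign were small. Fbln1 with HY209 against DNCB (0.10) was -0.03 with the mean of probe sets and -0.04 with the Gapdh covariate, and -0.19 to 0.47 without single arrays. Lum in DNCB against sham (0.19) was -0.08 after quantile normalization and -0.03 with the spike-in covariate, and -0.28 to 0.67 without single arrays. Mfap5 with HY209 against sham (-0.07) was 0.04 after quantile normalization, 0.01 with each array centred on its median and 0.18 with the replicate block, and -0.13 to 0.06 without single arrays. Tnxb with HY209 against DNCB (-0.13) ran from -0.23 to 0.01 without single arrays. Quantile normalization moved the median of all genes in DNCB against sham from 0.15 to 0, and that of the matrix genes from 0.22 to 0.07. The stricter filter left 24 matrix genes, without Tnxb. Differences that rest on signals near the array medians, as for Tnxb, Efemp1, Fbln5 and Mfap5, are limited by background.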
